A study of Homo sapiens with 16 samples.

Results

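The 36 genes described here encode nucleolar and ribosome assembly factors, a set named for its known dependence on the transcription factor MYC, which was not tested here. They were taken by symbol from a list of such factors, drawn up with earlier results of these data known. All 36 were found among the 57500 genes counted, and all 36 passed the filter on low counts in both comparisons. RNA was sequenced in bulk from NCI-H929, an established human myeloma cell line, in 16 libraries. The first experiment compared 4 libraries of cells exposed to DMSO, the vehicle, with 4 libraries of cells given compound 27, a degrader of p300, at 3 nM for 6 h. The second compared 4 libraries of NTC cells, a control whose abbreviation the labels do not spell out, with 4 libraries of p300 KO cells. The sources used here do not say how the KO was made, whether it is 1 clone, or for how long the cells had lacked p300. The labels give all 16 libraries the same batch number. They do not state that replicates came from separate cultures, and p-values then reflect only how far these libraries scatter, a spread that may be technical.

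A ribosome is assembled in the nucleolus. RNA polymerase I (Pol I) makes the ribosomal RNA precursor, small nucleolar ribonucleoproteins (snoRNPs) guide its chemical modification, and large sets of factors fold, cut and package it into the small and the large subunit. MYC is known to bind the promoters of many of these genes through the E-box, and growing cells with high MYC make many ribosomes. p300, encoded by EP300, is an acetyltransferase that marks active enhancers and promoters, and MYC is among the genes that depend on it in myeloma cells.

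Total counts ran from 12590308, in degrader replicate 2, to 23120350 a library. Degrader replicate 2 and p300 KO replicate 1 stood apart from their groups: 64.9% and 47.7% of their counts came from the mitochondrial genome, against 5.99% to 6.96% in the other degrader libraries and 10.2% to 11.4% in the other KO libraries. Counts from other genes were correspondingly few in these libraries, and the calls for the 36 genes are given with all 8 libraries and without the library concerned. The DMSO libraries held 13.4% to 23.5% mitochondrial counts, so the degrader and DMSO libraries differed in that share also without degrader replicate 2, in the opposite direction. The part of this in the results was not tested. All 9 plasma cell markers examined were expressed, and together they made up 7542 to 14434 of the counts scaled to a common library size (CPM) in each library. The 24 markers of other cell types summed to 57.2 to 61.6 CPM in DMSO, 39.1 to 51.5 with degrader, 106.2 to 119.8 in NTC and 79.4 to 105.1 in p300 KO. None of the 24 was at 0 in every library. EP300, the targeted gene, was measured at 100.0, 92.5, 91 and 94.6 CPM in NTC and at 50.2, 38.1, 34 and 37.4 CPM in p300 KO. Every KO library was below every NTC library, and the gene fell by 1.25 on the log2 scale (adjusted p = 2.2e-04). With degrader, which acts on the protein, EP300 RNA was at 49.9, 141, 48.1 and 49.9 CPM. In DMSO it was at 35.8, 45.3, 43.9 and 41.4 CPM. The groups did not overlap, and degrader replicate 2 stood far above the rest. The log2 fold change was 0.79 ± 0.35 with all libraries (adjusted p = 0.249). Without degrader replicate 2 it was 0.24 ± 0.09 (adjusted p = 0.0531), so EP300 was called in neither setting.

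MYC RNA was lower in p300 KO. With degrader, MYC RNA was lower with and without degrader replicate 2, but was not called with all 8 libraries. In DMSO it was measured at 47.2, 63.5, 32.8 and 50.8 CPM, and with degrader at 30.6, 28.8, 31.1 and 24.3 CPM, scaled by the trimmed mean of M-values (TMM). All 4 degrader libraries lay below the lowest DMSO library, DMSO replicate 3, by a small margin. The log2 fold change was -0.76 ± 0.19 and did not pass the test with 8 libraries (edgeR's quasi-likelihood test, adjusted p = 0.0632). It passed without degrader replicate 2 (-0.77 ± 0.17, adjusted p = 0.00294), and also without DMSO replicate 3 (-0.91, adjusted p = 0.0274). As DMSO replicate 3 is the lowest control library for MYC, leaving it out raises the DMSO mean, and that call adds no support. In NTC, MYC was at 99, 89.7, 87.9 and 90.4 CPM and in p300 KO at 40.1, 55.5, 48.1 and 48.8 CPM, with no overlap. It fell by 0.93 on the log2 scale (SE 0.10, adjusted p = 5.1e-04), and by 0.85 without p300 KO replicate 1. In bulk RNA, fewer cells that express a gene and less of its RNA per cell cannot be told apart. The KO effect on MYC minus the degrader effect was -0.10 ± 0.19 without both mitochondria-rich libraries (adjusted p = 0.719), so no difference in the size of the MYC change was detected at this precision.

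The ribosome biogenesis genes spanned a wide range of levels. In counts scaled to library size and exon length (RPKM), DMSO cells held 581 RPKM of NPM1, a nucleolar chaperone, and 2.74 RPKM of UTP20, a scaffold of the small subunit precursor. The median of the 36 was 34.4 RPKM in DMSO. FBL, the ribose methyltransferase of the box C/D snoRNPs, stood at 157 RPKM and NCL, nucleolin, at 140.3 RPKM. In NTC cells the same genes marked the ends of the range, NPM1 at 443 RPKM and UTP20 at 1.73 RPKM. Both experiments were scaled separately, and levels are compared only within each.

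The E-box CACGTG, the element MYC is known to bind, was searched for in RefSeq promoter windows of 300 bases, 250 before and 50 after an annotated start (GRCh38.p14). The motif reads the same on both strands and no other motif was searched. Windows were matched by symbol for 29 of the 36 genes, and the other 7 were TCOF1, NOLC1, NOP58, MPHOSPH10, RRP12, BOP1 and DDX18. A match was present in 14 of the 29 (48.3%), beside 12.4% of 11801 tested genes with a window and 7.26% of all 35116 windows. The set is named for its known dependence on MYC, and the part of that choice in this share was not tested. MYC binding was not measured. All 14 had a match within 50 bases of the start, where 5.11% of the tested genes had one. Stretches of 100 bases, from 70 before to 30 after the start, are shown for 7 of these genes, to let the position of the motif be compared between genes of different role and response. Each is written 5′ to 3′ on the gene's own strand, with the motif in capitals.
WDR43 (chr2:28894597-28894696, plus strand): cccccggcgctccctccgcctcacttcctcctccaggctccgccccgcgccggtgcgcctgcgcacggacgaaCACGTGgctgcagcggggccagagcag
IMP4 (chr2:130342827-130342926, plus strand): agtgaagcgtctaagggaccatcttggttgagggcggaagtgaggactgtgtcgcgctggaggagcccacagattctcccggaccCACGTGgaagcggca
RRP9 (chr3:51941875-51941974, minus strand): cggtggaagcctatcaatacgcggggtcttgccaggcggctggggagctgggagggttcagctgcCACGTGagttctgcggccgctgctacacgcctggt
NOP14 (chr4:2963377-2963476, minus strand): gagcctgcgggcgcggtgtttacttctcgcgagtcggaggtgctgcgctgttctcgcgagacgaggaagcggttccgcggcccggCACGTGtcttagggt
FBL (chr19:39846350-39846449, minus strand): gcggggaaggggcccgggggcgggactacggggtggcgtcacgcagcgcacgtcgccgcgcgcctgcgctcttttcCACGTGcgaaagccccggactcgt
EXOSC5 (chr19:41397330-41397429, minus strand): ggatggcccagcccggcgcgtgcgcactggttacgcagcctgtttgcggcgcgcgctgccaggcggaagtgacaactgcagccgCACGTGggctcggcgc
PES1 (chr22:30591881-30591980, minus strand): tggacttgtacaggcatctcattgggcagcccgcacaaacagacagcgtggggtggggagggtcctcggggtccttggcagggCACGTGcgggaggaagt

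In RRP9 the motif starts 5 bases before the annotated start, and in the other 6 it lies just after it. GRWD1 and NOP56 had no match in these windows, which says only that these letters are not there.

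**Figure D1:**
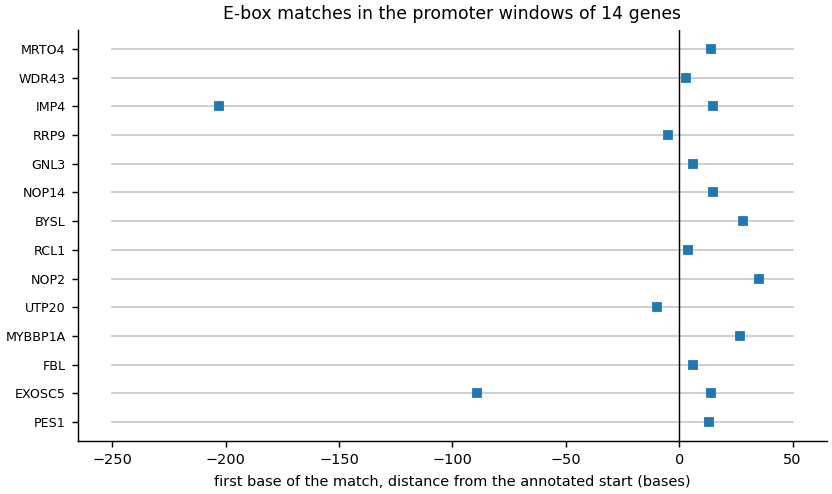
Position of each CACGTG match in the promoter windows of the 14 genes that have one, as the distance of its first base from the annotated start in bases; grey lines span the 300-base window. Each gene has a match between -10 and 35, and IMP4 and EXOSC5 have another further upstream.

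Most of these genes were lower in p300 KO cells than in NTC cells, by modest amounts. With all 8 libraries, 13 of 36 were lower than in NTC at an adjusted p under 0.05 and 0 were higher, beside 10.7% lower and 6.23% higher among all 17350 genes tested. At an unadjusted p under 0.05, 15 of the 36 were lower and 0 higher, and DESeq2 and limma-voom also called 0 higher. Without p300 KO replicate 1, 30 of 36 were lower and 0 were higher, where the background was 21.8% lower and 19.1% higher of 17706 genes. All 13 genes called with 8 libraries were among the 30. The median log2 fold change of the 36 was -0.20 with all libraries and -0.25 without that replicate, beside 0.02 and 0.00 over all genes. Without that replicate the falls of the 30 ran from -0.13 for NPM1 to -0.64 for GRWD1. The 6 genes not called there were TCOF1, MPHOSPH10, NOP14, UTP20, RCL1 and DDX18, at -0.05, -0.14, -0.12, -0.09, -0.19 and 0.08. Of the 30, 25 kept their call when any 1 of the remaining 7 libraries was left out as well, and the others, NPM1, FBL, NOC4L, BOP1 and LAS1L, lost it in 2 to 4 of those fits. Among these was always the fit without p300 KO replicate 4. Beside this, 5 of 9 plasma cell markers and 5 of 11 tested markers of other cell types were lower in KO with all libraries, among them IRF4, a transcription factor that myeloma cells need, at -0.45 (adjusted p = 0.00202). Without p300 KO replicate 1, 6 of the 9 plasma cell markers were lower and 1 higher. Of 12 markers of other cell types tested there, 7 were lower and 1 higher. The part of these in the result was not tested.

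**Figure D2:**
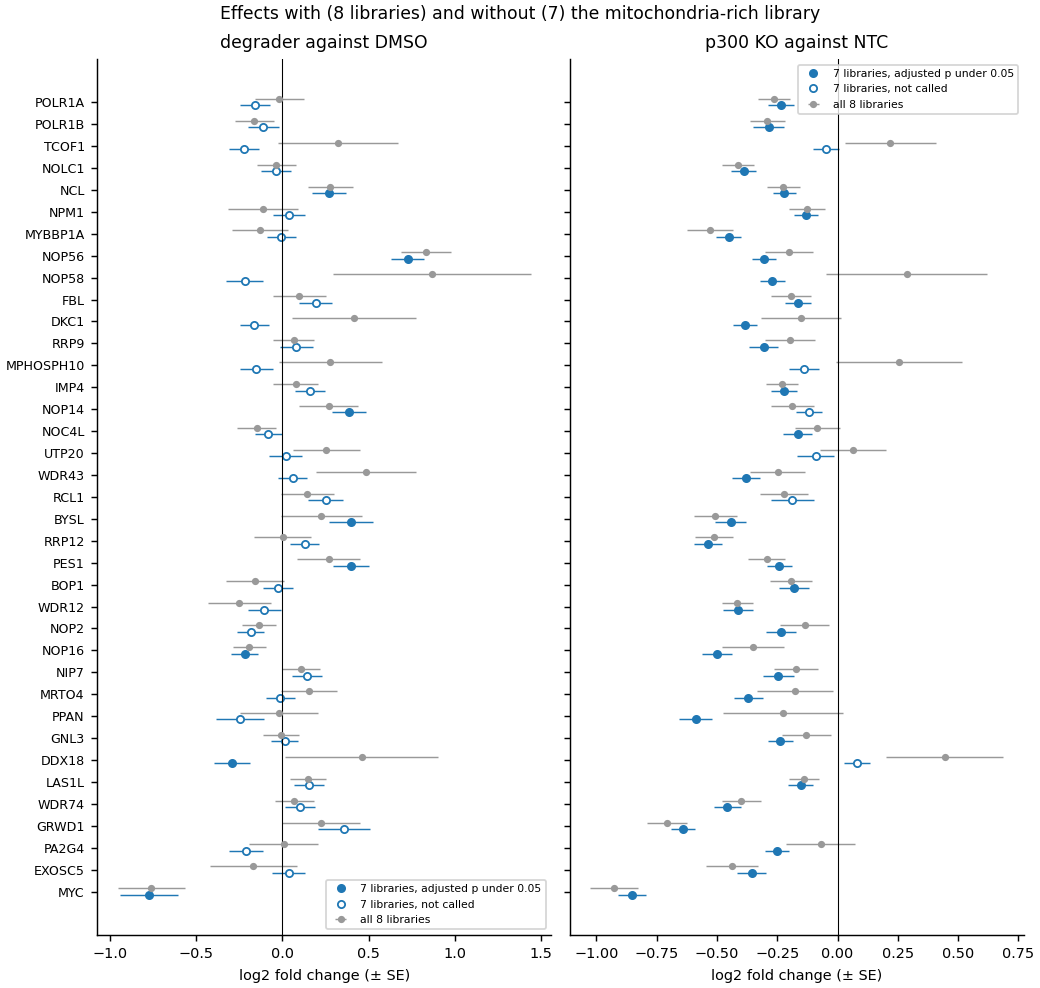
Log2 fold change with its standard error for the 36 ribosome biogenesis genes and MYC, degrader against DMSO on the left and p300 KO against NTC on the right; grey points use all 8 libraries of a comparison and blue points the 7 left without the mitochondria-rich library, filled where the adjusted p is under 0.05. On the right 30 of the 36 blue points are filled and lie below 0, and on the left 7 are filled, 5 above 0 and 2 below. MYC lies at -0.77 on the left and -0.85 on the right.

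Among the Pol I and nucleolar genes, 5 of 7 fell in p300 KO with all libraries and 6 of 7 without p300 KO replicate 1. Lower among all genes tested were 10.7% and 21.8%. POLR1A, which encodes the largest subunit of Pol I, was at 72.4, 66.8, 65.1 and 68.9 CPM in NTC and at 53.1, 58.4, 56.2 and 59.8 CPM in KO. POLR1B, the next largest subunit, went from 36.7, 32.9, 33.2 and 30.8 to 26.9, 26.8, 27.1 and 28.2 CPM. Every KO library lay below every NTC library for both genes, and their log2 fold changes were -0.26 ± 0.07 and -0.29 ± 0.07 (adjusted p = 0.0267 and 0.0238). NOLC1 (ENSG00000166197, chr10:102152176-102163871, plus strand), a chaperone of snoRNPs that shuttles between nucleolus and cytoplasm, was at 162, 143, 149 and 155 CPM in NTC and 108, 114, 117 and 118 CPM in KO. The groups did not overlap, and NOLC1 fell by 0.41 (SE 0.07, adjusted p = 0.00392). MYBBP1A, a nucleolar protein that acts on ribosomal RNA synthesis and processing, was at 169.5, 153, 172 and 174 CPM in NTC and 96, 121, 129 and 117 CPM in KO. KO replicate 1 was the lowest of the 8, and the change was -0.53 ± 0.10 with it and -0.45 ± 0.05 without it. NCL was at 708, 640.4, 712 and 716 CPM in NTC and 586, 596, 595 and 599 CPM in KO, -0.22 ± 0.07 with an adjusted p of 0.048. NPM1 passed only without KO replicate 1, at -0.13. The remaining gene, TCOF1 (treacle, a cofactor of Pol I), was at 120.5, 65.6, 65.2 and 66.5 CPM in the 4 KO libraries, where replicate 1 alone was high, and at 72, 64.8, 67.9 and 67.2 CPM in NTC.

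None of the 5 snoRNP genes passed in p300 KO with all libraries, and all 5 fell without KO replicate 1. The shares lower over all genes were 10.7% and 21.8%. NOP58, a core protein of the box C/D snoRNPs, was at 145, 137, 162 and 139.6 CPM in NTC and 351, 119.6, 123 and 121 CPM in KO. The first KO library was the highest of the 8 and the other 3 were the lowest, so the log2 fold change was 0.29 with all libraries and -0.27 ± 0.05 without that one (adjusted p = 5.6e-05). DKC1, the pseudouridine synthase of the H/ACA snoRNPs, showed the same arrangement, at 146, 139, 143 and 144 CPM in NTC and 187, 112, 109 and 109 CPM in KO, with -0.38 ± 0.05 without the first library. NOP56, the partner of NOP58, was at 187, 188, 193 and 203 and 202, 154, 166 and 148 CPM, with -0.30. RRP9, a protein of the U3 snoRNP, and FBL were at -0.31 and -0.16 without it.

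Of the 9 small subunit factors, 3 fell in p300 KO with all libraries and 5 without KO replicate 1. Beside this, 10.7% and 21.8% of all genes were lower. RRP12 (ENSG00000052749, chr10:97356358-97426076, minus strand), needed for the maturation and export of the precursor, was at 81.4, 66.8, 75.7 and 80.3 CPM in NTC and 55.8, 51.9, 54.1 and 51.6 CPM in KO. BYSL (ENSG00000112578, chr6:41921188-41933046, plus strand), a factor of late small subunit assembly, was at 41.7, 35.3, 37.1 and 38.3 CPM and 22.8, 27.7, 28.6 and 27.7 CPM. Neither gene overlapped between groups, and both fell by 0.51 (adjusted p = 0.00282 for RRP12 and 0.00583 for BYSL). IMP4, which binds the U3 snoRNA, was at 87.2, 77.7, 84.8 and 86.9 CPM and 70.4, 72.9, 75.2 and 68.4 CPM, a fall of 0.23 with an adjusted p of 0.0438. WDR43 and NOC4L passed only without the odd library, at -0.38 and -0.16.

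Of the 14 large subunit factors, 4 fell in p300 KO with all libraries and 13 without KO replicate 1. Beside this, 10.7% and 21.8% of all genes were lower. GRWD1 (ENSG00000105447, chr19:48445773-48457022, plus strand), a chaperone of a large subunit ribosomal protein, was at 222, 205, 204 and 213 CPM in NTC and 111, 133, 137 and 136 CPM in KO. All 4 KO libraries lay far below NTC, and the log2 fold change was -0.71 ± 0.08 (adjusted p = 8.4e-04). PES1, BOP1 and WDR12 form the PeBoW complex, which is needed to process the large subunit RNA. WDR12 was at 43.5, 40.9, 39.8 and 37.8 CPM in NTC and 30.04, 30.6, 30.9 and 29.96 CPM in KO, and fell by 0.41 (adjusted p = 0.00347). PES1 was at 159, 154, 147 and 165 CPM and 113, 131, 134 and 132 CPM, and fell by 0.29 (adjusted p = 0.0293). BOP1, the third of the complex, was at -0.19 with all libraries and passed only without the odd one, at -0.18, a call that was lost without NTC replicate 4 (adjusted p = 0.149). WDR74, which works with the ATPase NVL on the large subunit precursor, was at 70.9, 74.3, 78.3 and 81.5 CPM and 64.8, 57.2, 56.7 and 53 CPM, and fell by 0.40 (adjusted p = 0.0104). PPAN and NOP16, early large subunit factors, reached -0.59 ± 0.07 and -0.50 ± 0.06 without KO replicate 1, and for PPAN that library alone stood above NTC, at 52.2 CPM. NIP7, MRTO4, GNL3 (nucleostemin, a GTPase), PA2G4 (EBP1), NOP2 and LAS1L were called only without that replicate, between -0.37 for MRTO4 and -0.15 for LAS1L. DDX18, an RNA helicase, was the 1 large subunit gene not called in either setting, at 74.4, 69.9, 79.6 and 76.1 CPM in NTC and 172, 77.3, 80.4 and 80.5 CPM in KO. EXOSC5, a core subunit of the RNA exosome, was at 66.7, 65.4, 69.8 and 61.4 CPM and 39.3, 49.5, 57.7 and 47.4 CPM, and fell by 0.44 (adjusted p = 0.0235).

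Single libraries bore on several of these calls. GRWD1, RRP12, WDR12, NOLC1, BYSL, MYBBP1A and WDR74 kept an adjusted p under 0.05 in all 8 fits that left out 1 library. POLR1A, POLR1B, NCL, IMP4, PES1 and EXOSC5 lost it in 5 to 7 of the 8, always in fits that kept KO replicate 1, and the highest adjusted p was 0.138, for NCL without NTC replicate 4. Without KO replicate 1 and any 1 further library, these 13 genes were called in all 7 fits. Scaling by total counts moved the median of all genes from 0.02 to -0.14 and left 3 of the 36 called lower with all libraries. Relative to all genes the median of the 36 was then -0.26, beside -0.22 with TMM. Without KO replicate 1, the same scaling called 30 lower.

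**Figure D3:**
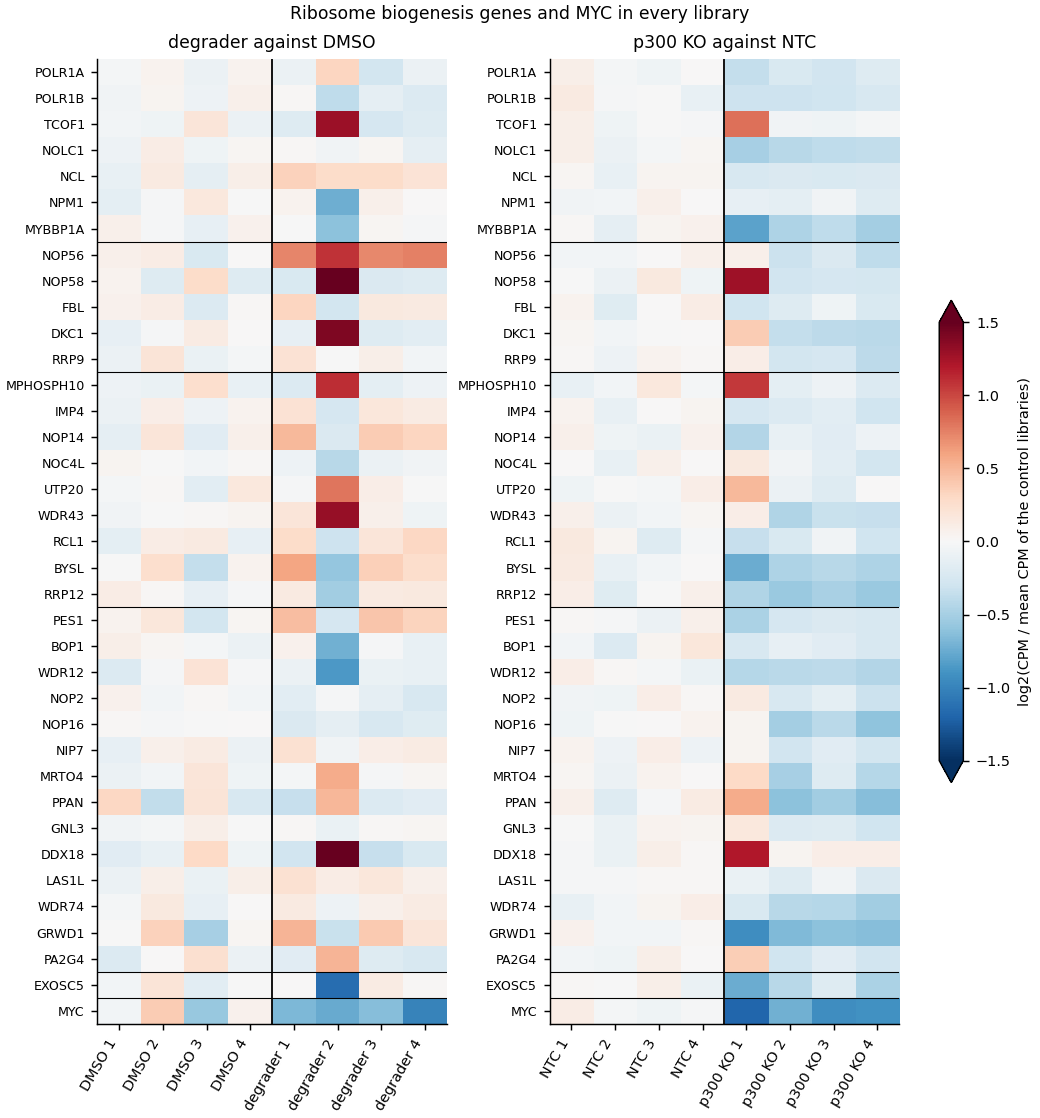
Log2 ratio of each library's CPM to the mean CPM of the 4 control libraries of its experiment, for the 36 genes grouped by role and for MYC; colours saturate at 1.5 in either direction. p300 KO replicates 2, 3 and 4 are below the NTC mean for 34 or 35 of the 36 genes each, whereas degrader replicates 1, 3 and 4 are below the DMSO mean for 15 to 19, and degrader replicate 2 and p300 KO replicate 1 carry their own pattern of high and low genes.

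With the degrader, few of these genes were called in either direction. With all 8 libraries, 1 of 36 was higher than in DMSO, NOP56, and 0 were lower, beside 1.64% higher and 3.12% lower of 15872 genes. At an unadjusted p under 0.05 none was lower either, limma-voom called 0 lower and DESeq2 called 1, NOP16. Without degrader replicate 2, 5 were higher and 2 lower, where 18.2% of 16297 genes were higher and 20.3% lower, so the shares of the 36, 13.9% and 5.56%, lay below the background in both directions. The other 29 lay between -0.24 for PPAN and 0.36 for GRWD1. The median log2 fold change of the 36 was 0.09 with all libraries and 0.02 without that replicate, beside 0.05 and -0.04 over all genes. Under total-count scaling the median of the 36 turned to -0.06 with all libraries, and the median of all genes to -0.09. With all libraries, IRF4 fell by 0.88 (adjusted p = 0.00475), as 1 of 9 plasma cell markers. CD3E was lower as 1 of 11 tested markers of other cell types. Without degrader replicate 2, 3 of the 9 plasma cell markers were higher and 2 lower. Of the 11 markers of other cell types, 1 was then higher and 2 lower. The part of these, and of the lower mitochondrial share, in the result was not tested.

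NOP56 (ENSG00000101361, chr20:2652145-2658393, plus strand), which forms the scaffold of box C/D snoRNPs with NOP58, was at 330.0, 338, 267 and 314 CPM in DMSO and 519, 664, 514 and 525 CPM with degrader. The 2 groups were far apart and degrader replicate 2 was the highest library. NOP56 rose by 0.83 ± 0.14 on the log2 scale (adjusted p = 0.016). Leaving that library out gave 0.73 ± 0.10 (adjusted p = 7.0e-05). The call with all libraries was lost in 5 of the 8 fits that left out 1 library, with the highest adjusted p, 0.0755, without DMSO replicate 4. Once degrader replicate 2 was out, it held in all 7. The other snoRNP genes were not called: FBL was at 0.19, RRP9 at 0.08, DKC1 at -0.16 and NOP58 at -0.22. NOP58 was at 327, 275, 379 and 275 CPM in DMSO and 268, 1482, 270.4 and 275 CPM with degrader, where 1 library stood far above the other 3.

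The other 4 genes called higher once degrader replicate 2 was left out came from 3 roles. NCL was at 899, 1067, 887 and 1035 CPM in DMSO and 1239.7, 1175, 1174 and 1124 CPM with degrader, with no overlap. Its log2 fold change was 0.28 ± 0.13 with all libraries, where it was not called. The value without replicate 2 was 0.27 ± 0.10 (adjusted p = 0.0379). NOP14, a small subunit factor, was at 88.7, 110.5, 86.7 and 103 CPM and 136, 83.9, 126 and 121 CPM. Here degrader replicate 2 was the lowest of the 8 libraries and the other degrader libraries were the highest 3, which gave 0.39 ± 0.10 without it (adjusted p = 0.00766). PES1 was likewise highest in the same 3 degrader libraries, with 214, 232, 170.2 and 210.2 CPM in DMSO and 285, 173, 276 and 260.0 CPM with degrader, and 0.40 ± 0.10 without replicate 2 (adjusted p = 0.00825). BYSL reached 0.40 ± 0.13 (adjusted p = 0.0227). The calls of NOP14 and PES1 held in all 7 further fits that left out 1 library; NCL lost its call in 4 and BYSL in 2.

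NOP16 and DDX18 were called lower with degrader once replicate 2 was left out. NOP16 was at 106, 103, 105 and 106 CPM in DMSO and 90.3, 95.3, 89 and 92.6 CPM with degrader. The groups did not overlap. The log2 fold change of NOP16 was -0.19 with all libraries, where it was not called. Without replicate 2 the fall was 0.22 (SE 0.08, adjusted p = 0.0364). DDX18 was -0.29 ± 0.11 without replicate 2 (adjusted p = 0.04) and 0.46 with it, as that library stood 1.89 on the log2 scale above its group. Both calls were lost in 4 of the 7 further fits. RLE scaling and total-count scaling called neither.

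Among the genes that fell most in p300 KO, GRWD1 and RRP12 were not called lower with degrader. GRWD1 was at 177, 226, 126 and 182 CPM in DMSO and 252, 141, 234 and 202 CPM with degrader, and RRP12 at 137, 129, 117 and 126 and 140.0, 88.9, 140.2 and 141 CPM. For both, replicate 2 was the low degrader library, and without it their log2 fold changes were 0.36 ± 0.15 and 0.13 ± 0.08 (adjusted p = 0.0722 and 0.235). NOLC1 and MYBBP1A lay close to 0, at -0.04 ± 0.09 and -0.01 ± 0.09. Other genes with the smallest p in this comparison are given with their values. POLR1B was at 36.1, 38.5, 35.3 and 39.3 CPM in DMSO and 37.9, 28.6, 34 and 32.4 CPM with degrader, and the groups overlapped. WDR12 was at 57.1, 65.3, 76.3 and 65.3 CPM and 62.1, 36.4, 61.7 and 61.2 CPM, with degrader replicate 2 alone at the low end. LAS1L, part of an endonuclease complex that cuts the large subunit precursor, was at 87.9, 99.3, 87.5 and 99.1 CPM and 109, 101, 105 and 98.8 CPM. NOP2, a methyltransferase of the large subunit RNA, was at 78.9, 73, 76 and 73.5 CPM and 67.4, 74.4, 68.8 and 63.7 CPM. None of these 4 passed the test with or without replicate 2, and their log2 fold changes without it were -0.11, -0.10, 0.15 and -0.19. WDR43 was at 86.4, 88.6, 90.1 and 91.8 CPM in DMSO and 101, 221, 94.1 and 85.4 CPM with degrader. UTP20 was at 27, 27.7, 24.6 and 30.7 CPM and 27.3, 48, 29.5 and 27.4 CPM. In both, replicate 2 alone was high, and without it the log2 fold changes were 0.06 and 0.02.

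DMSO replicate 3 differed from the other vehicle libraries in ways that touch this comparison. It held the lowest MYC level of its group, 32.8 CPM, and the highest mitochondrial share, 23.5%. It was also the lowest of the 4 DMSO libraries for 17 of the 36 genes and the highest for 12. Such counts were not particular to it. DMSO replicate 1 was the lowest for 12 genes, DMSO replicate 2 the highest for 13, and NTC replicate 2 the lowest of its group for 22. GRWD1 was lowest in DMSO replicate 3 by a wide margin. DDX18 was highest there, at 189 CPM.

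**Figure D4:**
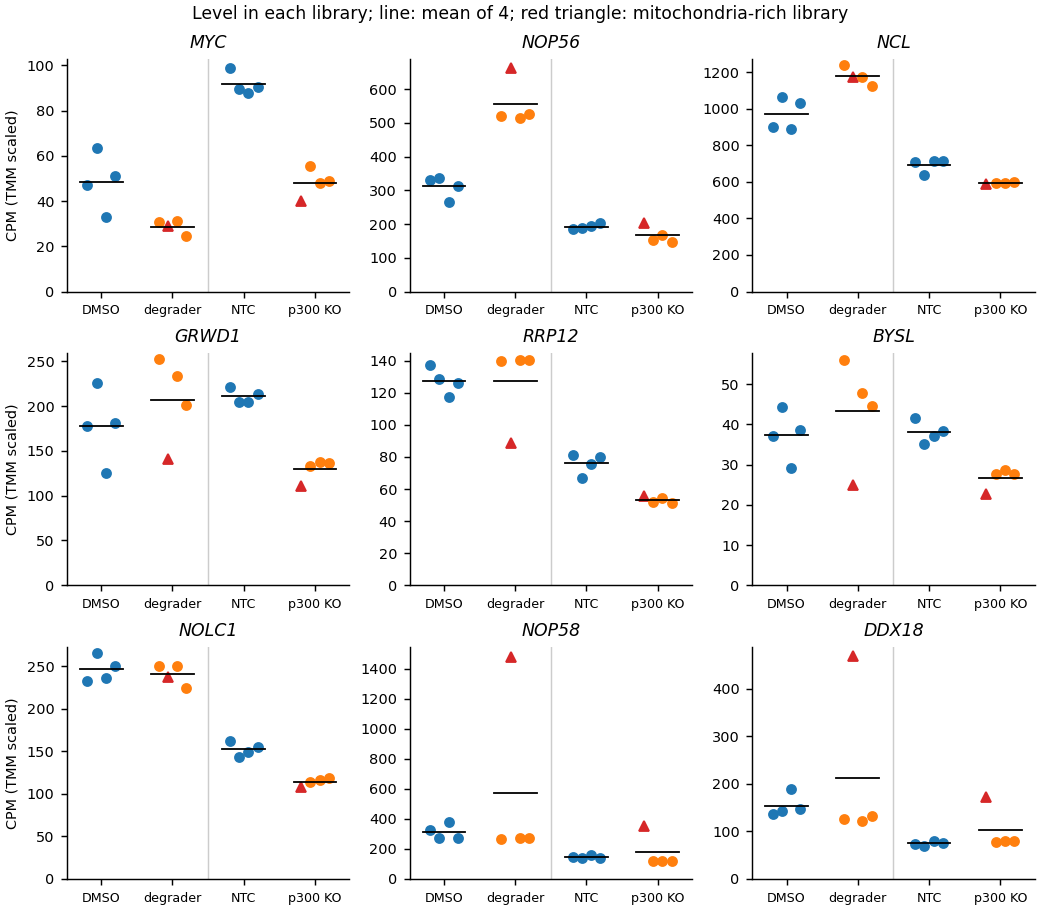
CPM in each of the 16 libraries for MYC and 8 ribosome biogenesis genes, with axes from 0, a line at the mean of 4 libraries, and a red triangle for the mitochondria-rich library; the 2 experiments, divided by the grey line, were scaled separately. MYC is low in both treated groups, GRWD1, RRP12, BYSL and NOLC1 are lower in p300 KO than in NTC, NOP56 is high with degrader, and the triangles of NOP58 and DDX18 stand above every other library of their experiment.

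The 2 effects were set against each other in 1 fit of all 16 libraries, as the p300 KO effect minus the degrader effect. With all libraries, 4 of 36 genes differed, all lower (3.76% of 18068 genes were lower and 2.82% higher), and 0 were higher, also at an unadjusted p under 0.05 and by DESeq2 and limma-voom. These were NOP56 at -1.08 ± 0.16 (adjusted p = 6.5e-04), GRWD1 at -0.97 ± 0.27 (adjusted p = 0.0422), NCL at -0.54 ± 0.14 (adjusted p = 0.0311) and WDR74 at -0.51 ± 0.13 (adjusted p = 0.0277). Without the 2 mitochondria-rich libraries, 23 of 36 differed in that direction and 1, DDX18, in the other, beside 16.7% lower and 15.3% higher of 18432 genes. The median difference over the 36 was -0.32 with all libraries and -0.38 without those 2, beside -0.04 and 0.00 over all genes. Of the 24, 16 kept their call in every one of 14 further fits that left out 1 library, among them NOLC1, MYBBP1A, NOP14, WDR43, RRP12 and PES1. The fewest called lower in those fits was 16, without p300 KO replicate 4.

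The largest differences after those of NOP56 and GRWD1 were in BYSL (-0.87 ± 0.15), RRP12 (-0.69 ± 0.11) and PES1 (-0.66 ± 0.12), 3 genes that fell in KO while BYSL and PES1 rose with degrader. In all, 19 genes had a negative log2 fold change in KO and a positive one with degrader, again without the 2 libraries. Negative in both were 16. The share of all genes with each pattern was not computed. In KO 97.2% of the 36 and 49.9% of all genes were negative, and with degrader 47.2% and 53.3%. For 12 genes no difference between the experiments was called without the 2 libraries. They included PA2G4 (-0.07 ± 0.11), NOP58 (-0.08 ± 0.12), NOP2 (-0.08 ± 0.10) and MPHOSPH10 (-0.02 ± 0.12). MYC was one of the genes with no called difference, as given above. The means of removing p300 and the control differ together between the experiments and cannot be told apart, and the time without p300 is known for the degrader only.

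The 36 genes deviated in much the same order in both mitochondria-rich libraries. Degrader replicate 2 stood between -1.19 and 2.45 on the log2 scale from the mean of the other degrader libraries, and p300 KO replicate 1 between -0.39 and 1.53 from the other KO libraries. Across the 36 genes the deviations had a Pearson correlation of 0.89 and a Spearman correlation of 0.83, as a description, since genes of a library share its depth and composition. NOP58 led both lists (2.45 and 1.53). DDX18 (1.89 and 1.11) and MPHOSPH10 (1.25 and 1.20) were also above 1 in both, TCOF1, DKC1 and WDR43 were above 1 in degrader replicate 2 only, and PPAN in p300 KO replicate 1 only (1.15, beside 0.74). Below -0.5 lay 11 of the 36 in degrader replicate 2 and none in p300 KO replicate 1. EXOSC5 and BYSL were the lowest in degrader replicate 2, at -1.19 and -0.99, and lay below 0 in p300 KO replicate 1 too. The sign was the same for 27 of the 36.

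**Figure D5:**
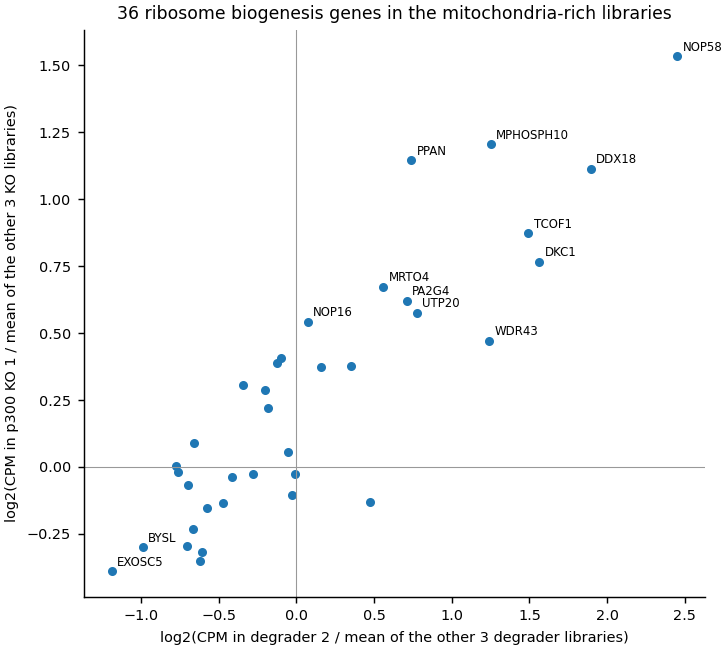
Each point is 1 of the 36 genes, placed by the log2 ratio of its CPM in degrader replicate 2 to the mean of the other 3 degrader libraries (horizontal) and of its CPM in p300 KO replicate 1 to the mean of the other 3 KO libraries (vertical). NOP58, DDX18, MPHOSPH10, TCOF1 and DKC1 are high in both libraries, and EXOSC5 is lowest in both.

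The other ribosome biogenesis factors, 151 genes listed by role, were compared in the same fits. In p300 KO, 18 of 149 tested were lower (12.1%) and 4 higher (2.68%) with all libraries, where 10.7% and 6.23% of all genes were, so the share lower was near the background. Without KO replicate 1, 56 were lower (37.6%) and 11 higher (7.38%), beside 21.8% and 19.1% of all genes. Their median was -0.05 and -0.11. Whether the 36 and the 149 differ was not tested. CCDC86, a nucleolar protein, went from 172 ± 7.82 to 91.3 ± 15.9 CPM (SD, n = 4) and fell by 0.91 (adjusted p = 0.00147). WDR3 (small subunit), RUVBL1 (snoRNP assembly), RRS1 (large subunit), NAF1 (H/ACA snoRNP assembly) and NOL6 (small subunit) fell by 0.53, 0.47, 0.57, 0.40 and 0.30. The genes that rose were EXOSC10, EXOSC8, DDX52 and SPOUT1, by 0.35, 0.41, 0.31 and 0.24, and the first pair are subunits of the RNA exosome, as is EXOSC5, which fell. By role, without KO replicate 1, 4 of 13 other Pol I genes, 23 of 55 small subunit, 22 of 55 large subunit and 7 of 26 snoRNP and exosome genes were lower, against 0, 3, 3 and 5 higher. The last group, at 26.9% lower and 19.2% higher, was near the 21.8% and 19.1% of all genes. With the degrader, EFL1, which releases a late large subunit factor, rose by 0.81 and MPHOSPH6, an exosome partner, by 0.43 (adjusted p = 0.0465 and 0.0331). No other of the 149 was called with all libraries, and DESeq2 called 7 higher and 0 lower. At an unadjusted p under 0.05, 17 were higher and 5 lower, beside 1532 higher and 1757 lower of 15872 genes. Without degrader replicate 2, 39 were higher (26.2%) and 11 lower (7.38%), beside 18.2% and 20.3% of all genes. Their median was 0.15 with all libraries and 0.13 without that replicate.

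The 79 ribosomal protein genes, which encode proteins of the ribosome itself, were mostly not called. In p300 KO, 0 were called with all libraries by edgeR, DESeq2 or limma-voom, 2 were lower and 0 higher at an unadjusted p under 0.05, and without KO replicate 1, 6 were lower (7.59%) and 0 higher, below the 21.8% and 19.1% of all genes. Their median was -0.05 and -0.03. With the degrader, 0 were called and 0 had an unadjusted p under 0.05 with all libraries, and their median was -0.09. Without replicate 2, 14 were higher (17.7%), about the 18.2% of all genes, and 2 lower (2.53%, beside 20.3%), with a median of -0.01.

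The responses of the genes with and without a CACGTG match in the promoter windows shown above were set side by side, and their difference was not tested. Without KO replicate 1, the 14 genes with a match had a median log2 fold change of -0.24 in KO, and 11 were called, while the 15 with a window but no match had a median of -0.29, and 15 were called, all of them lower, beside 21.8% of all genes. With the degrader the medians were 0.07 and -0.08, without degrader replicate 2. Called there were NOP14, BYSL and PES1, all higher, among those with a match, and NCL and NOP56 (higher) and NOP16 (lower) among those without, beside 18.2% higher and 20.3% lower of all genes.

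The gene structure limits what some of these counts mean. Within 7 of the 36 genes lie 25 snoRNA genes, 5 of them inside NOP56, 4 inside NOP58 and 6 inside GNL3. Another protein-coding gene overlaps 15 of the 36, such as CARF at WDR12, TCN2 at PES1, KCNJ14 at GRWD1 and P2RY11 at PPAN. NPM1 has 45 numbered pseudogenes in the annotation. The sources used here do not state how counting treated strand or reads with several matches, and the values of these genes are uncertain to that extent.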

How the data were processed

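RNA was sequenced from 16 libraries of NCI-H929 cells. For each library the authors deposited a table of whole-number counts per Ensembl gene. Per the submitters' processing notes, the build was GRCh38 and the tools named are STAR 2.5.2b, Trimmomatic 0.36, DESeq2 1.16.1 and featureCounts from Subread 1.5.2. No normalization is seen in the deposited counts. The gene length in the table was taken as deposited and used only for levels per length.

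Ensembl identifiers were matched to symbols, and all 36 genes were found. Of 151 other ribosome biogenesis genes, 150 matched by symbol (AFG2A did not) and 149 were tested. The genes and lists were chosen with earlier results of these data known. Each comparison was fitted on its own 8 libraries, and the difference of effects on all 16. Genes were kept by filterByExpr (minimum count 10, minimum total 15), scaled by TMM and tested with edgeR's quasi-likelihood test (edgeR 4.0.16, R 4.3.3). P-values were adjusted by Benjamini-Hochberg over all genes tested and called under 0.05. Every adjusted p in the text is from this test unless another tool is named. Values after ± are standard errors for log2 fold changes and standard deviations for levels. Fold changes are treated minus control on the log2 scale.

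Total counts of 12590308 to 23120350 put the floor of 3 counts at 0.130 to 0.238 CPM, which covers counting error only, far below the genes described. No 2 libraries held identical counts. Same-numbered replicates were not paired. Alternatives were RLE and total-count scaling, no filter, mitochondrial genes removed, DESeq2 1.42.0, limma-voom (limma 3.58.1), a replicate block and leaving out each library. The fits without degrader replicate 2 and p300 KO replicate 1, and those leaving out a further library, were added after seeing the data. Genes shown by library are those called with all libraries, filled up to 12 by the smallest p where fewer than 4 were called, and up to 6 other genes per direction with the smallest p among those called. GRWD1, RRP12, NOP58, DKC1, NOP56, TCOF1, PPAN and DDX18 were shown beyond this rule in 1 comparison each, after their values were seen. The test was checked on simulated data.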

Additional observations from a re-analysis of the deposited data

Results flagged for a closer look

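In 11 of 64 groups of 4 values checked, 1 library stood so far from the other 3 that its gap, as a share of the group's range, passed Dixon's 95% critical value. Chance alone gives about 1 in 20 for independent groups, but these groups share libraries. With degrader, replicate 2 was the far library, with a gap of 0.994 for NOP58, 0.965 for WDR12, 0.923 for NOP56, 0.891 for UTP20, 0.885 for WDR43 and 0.980 for EP300. It was high for each of these except WDR12. The mitochondrial share of that library had a gap of 0.983. In p300 KO, replicate 1 was the far library and was low, with a gap of 0.851 for GRWD1, 0.849 for BYSL and 0.863 for PES1. Its mitochondrial share had a gap of 0.970. All 3 genes were lower in KO than in NTC with and without that library. The genes checked were those with the smallest p in each comparison. For others, not checked in KO, p300 KO replicate 1 was high. It stood above the mean of the other KO libraries by 1.53 for NOP58 and 1.11 for DDX18 on the log2 scale. For TCOF1 and DKC1 it stood 0.87 and 0.77 above.

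The KO effect minus the degrader effect passed the edgeR test of the difference for NOP56 at -1.08, GRWD1 at -0.97, NCL at -0.54 and WDR74 at -0.51 with all 16 libraries. NOP56 and NCL were called higher with degrader and lower in KO once both mitochondria-rich libraries were left out. GRWD1 and WDR74 were called lower in KO, with uncalled positive values with degrader.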

How the results depend on the processing

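Of the 36 genes, the number called higher with degrader (1 with all libraries) was 0 under total-count scaling, without the filter and with the replicate block, 2 with DESeq2, and 0 to 5 when 1 library was left out. The number called lower (0) was 1 with DESeq2 and 0 to 2 with a library left out. Without degrader replicate 2, the 5 higher became 10 under total-count scaling and 3 to 7 without a further library, and the 2 lower became 0 under RLE or total-count scaling, 1 without mitochondrial genes and 0 to 4 without a further library. In p300 KO the 13 lower became 3 under total-count scaling, 7 with the replicate block and 7 to 30 with a library left out, the 30 being without p300 KO replicate 1. The 30 lower without that replicate stayed between 25 and 32 without a further library. For the difference of effects, the 4 lower became 0 under total-count scaling, 1 without the filter and with the replicate block, 9 with DESeq2, 23 without both mitochondria-rich libraries and 1 to 18 without 1 library. The 0 higher became 1 without both. That 1, DDX18, was 0 under total-count scaling and 0 to 1 without a further library, and the 23 lower ran from 16 to 25. DDX18 with degrader ran from -0.29, without degrader replicate 2, to 0.64, NOP58 in KO from -0.27, without p300 KO replicate 1, to 0.44, and the DDX18 difference from -0.35 to 0.64 with 1 library left out, and was 0.34 without both, a change of sign in each case. The cause of these changes was not tested. Same-numbered libraries correlated between -0.49 and 0.17 in the degrader experiment and between -0.19 and 0.04 in the KO experiment, and none correlated best with its own number, so the block was not read further. Depth limits the 2 mitochondria-rich libraries most, as 64.9% and 47.7% of their counts were mitochondrial.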
